A study of Homo sapiens with 6 samples.

Results

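Keratin genes were examined in SKOV3, a long-established line of human ovarian cancer cells, grown in 3D or in 2D culture. The set was chosen by name, and it and the gene lists below were chosen with earlier results of these data known. The set held 10 genes of simple epithelia, of basal and stress-responsive epithelium and of hair-type keratin: KRT5, KRT6A, KRT7, KRT8, KRT14, KRT17, KRT18, KRT19, KRT80 and KRT81. Of these 10, 7 had a probe set with a gene symbol in the annotation used here, out of 14884 genes measured. KRT6A, KRT17 and KRT81 are not analysed here. Each gene was represented by its brightest probe set, judged by the mean of the 6 arrays. Among the measured members this choice mattered only for KRT18, which had 2 probe sets.

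The 3D cells (n = 3 arrays) grew for 11 days on low-attachment 96-well plates in McCoy's 5A medium with 15% serum and 0.015% (w/v) FP001, a medium additive whose make-up the labels do not state. The 2D cells (n = 3 arrays) grew for the same time on attachment plates in the same medium and serum, with water in place of FP001 per the labels. The effects of the plate and of FP001 cannot be told apart, because neither was changed alone. Nothing in the labels says whether the arrays of a group came from separate cultures, so the p-values speak to the spread among these arrays alone, and that spread may be technical. Values are log2 RMA values, and every change is 3D minus 2D. A gene was called changed at an adjusted p under 0.05 in limma, with Benjamini-Hochberg adjustment over all 14884 genes.

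Of 5 markers listed for this cell line, 3 were measured and 0 passed (limma, and 0 at an unadjusted p under 0.05). EPCAM, KRT8 and KRT18 were also planned as markers of the line and are counted in other lists below. Of these, EPCAM rose by 1.76 (limma adjusted p = 0.000159), and KRT8 and KRT18 did not pass. The Müllerian transcription factor gene PAX8 averaged 10.34 in 3D and 10.18 in 2D. 3D replicate 1 stood apart in its group: it correlated across genes at 0.988 with each of the other 3D arrays, which correlated at 0.995 with each other. Its value is therefore given singly for every keratin. Of 11 leukocyte markers 6 were measured and 2 rose, the lysozyme gene LYZ (1.83, or 1.06 as the mean of its probe sets) and the lysosomal gene CD68 (0.68), where 5.23% of all genes rose. The other 4 did not pass and had negative changes, from CD14 (-0.41) to TYROBP (-0.07), and 2 were lower at an unadjusted p under 0.05 (limma). The median change of the 6 was -0.16. The mean log2 value of those 6 ran from 5.49 to 5.62 in 3D and from 5.29 to 5.38 in 2D. Of 11 fibroblast and endothelial markers 4 were measured and 1 rose, PECAM1 (1.27), and the median change of those 4 was 0.04. Their mean ran from 3.99 to 4.22 in 3D and from 3.74 to 3.80 in 2D. The leukocyte marker PTPRC, the T cell marker CD3E and the collagen gene COL1A1 were not among the measured genes. The part of these markers in the keratin results was not tested.

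Keratins are the intermediate filament proteins of epithelial cells. Each filament is built from pairs of a type I (acidic) and a type II (basic to neutral) keratin, and the pair a cell makes depends on the kind of epithelium. Simple epithelia, including those of the ovary surface and the fallopian tube, are known for KRT8 and KRT18 with KRT7 and KRT19, whereas the basal layer of stratified epithelia makes KRT5 and KRT14. Keratins are widely used as markers of carcinoma origin, and filaments are anchored at the membrane by desmosomes.

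The keratins of SKOV3 cells did not move as a block. KRT5, the type II keratin of basal epithelium, rose 9.29-fold in 3D, and KRT19, a type I keratin of simple and ductal epithelia, rose 6.49-fold. KRT80, a type II keratin found near the cell margin, fell 3.40-fold, and KRT7, a type II keratin of glandular epithelia, fell 1.91-fold. KRT8, KRT14 and KRT18 did not pass. Thus 2 of 7 measured members rose and 2 fell, where 5.23% of all genes rose and 4.77% fell. The count of rises was 1 without any single array other than 3D replicate 1, where KRT5 was lost, and 3 without 3D replicate 1, where KRT18 was added. KRT5 and KRT19 rose at least 2-fold, as did 1.74% of all genes, and KRT80 fell at least 2-fold, as did 1.14%. The members' median change was 0.16, against -0.01 over all 14884 genes. The median stands for little here, because the 4 members that passed lay on both sides of it. In these bulk samples, fewer cells of a type and less RNA per cell cannot be told apart.

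**Figure D1:**
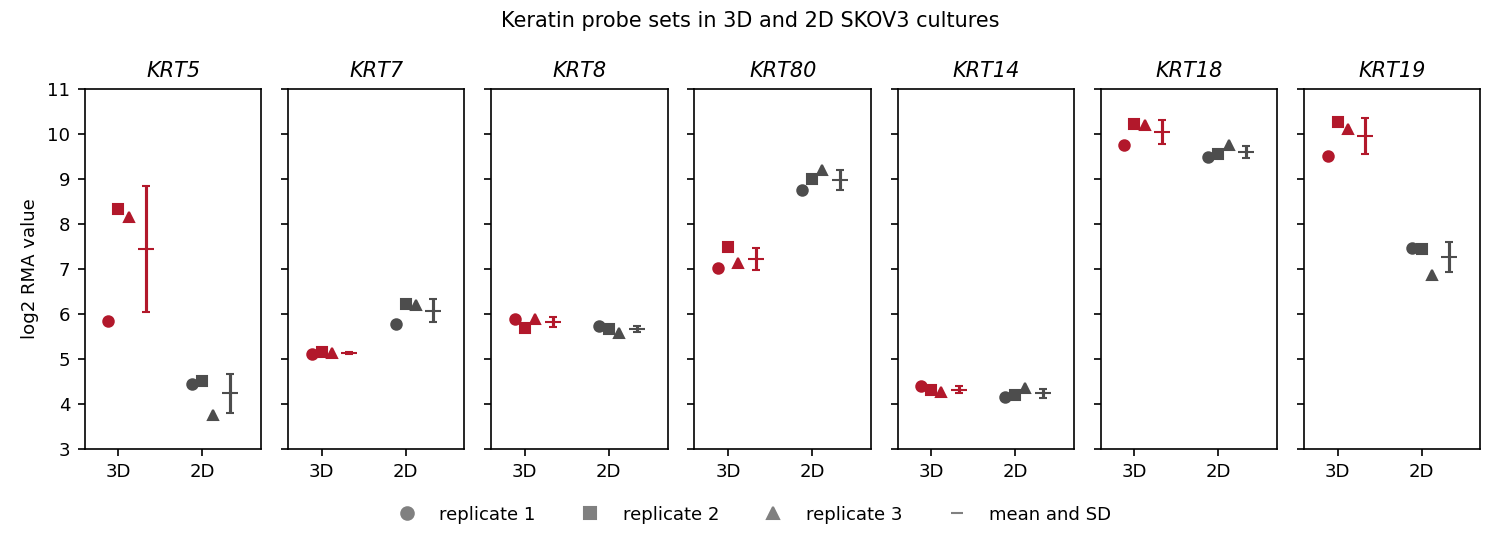
Log2 RMA values of the 7 measured keratin genes on each of the 3 3D arrays and 3 2D arrays, with one panel per gene. Symbols mark replicates, and bars give the mean and SD. KRT5 and KRT19 lie higher and KRT7 and KRT80 lower in 3D with no overlap between groups, and the 3D points of KRT5 are spread from 5.83 to 8.34.

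Among the type II members, KRT5 showed both the largest change and the largest spread. It read 5.83, 8.34 and 8.16 in 3D replicates 1, 2 and 3, and 4.45, 4.50 and 3.74 in 2D replicates 1, 2 and 3. The 2D values lay close to or below the array medians of 4.30 to 4.37, so the change was measured from a dim baseline. All 3D arrays lay above all 2D arrays, but 3D replicate 1 lay closer to the highest 2D array than to either of the other 3D arrays. The means were 7.44 ± 1.40 in 3D and 4.23 ± 0.43 in 2D (SD, n = 3 each), a log2 change of 3.22 ± 0.62 (SE, limma adjusted p = 0.0173; 95% interval 1.78 to 4.66). The change ranked at position 10 among the 778 genes that rose. Of all 14884 genes, 1 had a larger SD among the 3D arrays than KRT5, the microRNA gene MIR590. The median SD over all genes was 0.14 in 3D and 0.13 in 2D. Without 3D replicate 1 the change was 4.02 (adjusted p = 0.000332). Without any other single array the call was lost, with changes of 2.77 to 3.35 and adjusted p-values of 0.0519 to 0.0708.

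Promoter sequences were at hand for only 2 of the 10 members, KRT5 and KRT8, and both are shown. KRT5 had the largest change of the members, and KRT8, another type II keratin gene of the same chromosome, did not pass. RefSeq sequences (GRCh38.p14) were matched by symbol, with 250 bases before the start listed for each gene and 50 after it. KRT5 lies at chr12:52520345-52520644 and KRT8 at chr12:52926420-52926719, both on the minus strand, and both are written 5′ to 3′ along the gene.
KRT5: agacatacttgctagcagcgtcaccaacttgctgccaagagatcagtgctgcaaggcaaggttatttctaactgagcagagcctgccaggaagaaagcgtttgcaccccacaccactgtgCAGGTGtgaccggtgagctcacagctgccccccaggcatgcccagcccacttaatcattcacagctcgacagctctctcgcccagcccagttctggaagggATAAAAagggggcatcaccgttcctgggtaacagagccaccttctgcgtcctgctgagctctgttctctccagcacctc
KRT8: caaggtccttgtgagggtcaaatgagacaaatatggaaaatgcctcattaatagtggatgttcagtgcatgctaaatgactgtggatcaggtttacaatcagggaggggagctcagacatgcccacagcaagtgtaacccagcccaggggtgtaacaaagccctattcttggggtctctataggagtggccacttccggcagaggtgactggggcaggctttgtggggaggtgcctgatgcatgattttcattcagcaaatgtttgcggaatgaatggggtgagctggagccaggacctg
The capitals in KRT5 mark matches among 6 motifs searched on both strands. They were the TATA box TATAAA and the similar ATAAAA, which can overlap it. The others were the AP-1 motif TGANTCA, the AP-2 motif GCCNNNGGC, the GC box GGGCGG and, as an E-box, CACCTG. KRT5 held ATAAAA, at position -29 from the start of the gene, and CACCTG on the opposite strand, read here as CAGGTG, at position -130. Of 35116 promoters of this length, 16.0% held ATAAAA and 20.6% held CACCTG. The KRT8 window held no match to the 6 motifs. Matches are a description of the letters only.

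KRT7 was lower in 3D with very little spread among those arrays. It read 5.11, 5.16 and 5.13 in 3D replicates 1, 2 and 3, and 5.77, 6.23 and 6.20 in 2D replicates 1, 2 and 3. The 3D arrays lay together, all below the lowest 2D array, and 2D replicate 1 was the lowest of its group. The means were 5.13 ± 0.03 in 3D and 6.07 ± 0.26 in 2D (SD, n = 3 each), a change of -0.93 ± 0.14 (SE, limma adjusted p = 0.00532). The SD of 3D was smaller for 507 of 14884 genes. The fall passed in every alternative that was run, with changes from -1.08 to -0.85.

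KRT80 had the largest fall of the members. It read 7.023, 7.490 and 7.139 in 3D replicates 1, 2 and 3, and 8.752, 9.004 and 9.195 in 2D replicates 1, 2 and 3. The groups were far apart, with more than 1 log2 unit between the highest 3D and the lowest 2D array. The means were 7.22 ± 0.24 in 3D and 8.98 ± 0.22 in 2D (SD, n = 3 each), a change of -1.77 ± 0.16 (SE, limma adjusted p = 0.000606). It ranked at position 49 among the 710 genes that fell, KRT7 at position 191. The fall of KRT80 also passed in every alternative that was run, with changes from -1.90 to -1.66.

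KRT8, the type II partner of KRT18 in simple epithelia, did not pass. It read 5.89, 5.68 and 5.88 in 3D replicates 1, 2 and 3, and 5.72, 5.67 and 5.58 in 2D replicates 1, 2 and 3, so the groups overlapped. The change was 0.16 ± 0.10 (SE, limma adjusted p = 0.416), with a 95% interval of -0.08 to 0.40. The platform annotation ties this probe set to a non-coding transcript variant of KRT8, and KRT8 has many processed copies in the genome, so the value is uncertain as a measure of the coding transcript.

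Among the type I members, KRT19 rose on all 3D arrays. It is the smallest keratin and lacks most of the tail found in the other type I proteins. It read 9.50, 10.27 and 10.11 in 3D replicates 1, 2 and 3, and 7.47, 7.45 and 6.87 in 2D replicates 1, 2 and 3. 3D replicate 1 was the lowest of the 3D arrays and still far above the highest 2D array. The means were 9.96 ± 0.40 in 3D and 7.26 ± 0.34 in 2D (SD, n = 3 each), a change of 2.70 ± 0.24 (SE, limma adjusted p = 0.000495; position 17 among the 778 risers). Its call held in every alternative that was run, with changes from 2.50 to 2.93.

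KRT18, the type I keratin of simple epithelia that pairs with KRT8, was near the threshold. It read 9.75, 10.22 and 10.19 in 3D replicates 1, 2 and 3, and 9.50, 9.56 and 9.76 in 2D replicates 1, 2 and 3. 3D replicate 1 lay just under 2D replicate 3, and the other 3D arrays lay above all 2D arrays. The change was 0.45 ± 0.15 (SE, limma adjusted p = 0.117), with a 95% interval of 0.10 to 0.80, and without 3D replicate 1 it was 0.60 and passed (adjusted p = 0.0187). The gene had a dimmer probe set as well, which read 7.16, 7.48 and 7.34 in 3D and 6.99, 7.02 and 7.06 in 2D, with no overlap. In the fit of all probe sets the dimmer one gave 0.31 ± 0.12 (SE, adjusted p = 0.322) and the brighter one 0.45 ± 0.16 (adjusted p = 0.29).

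The 2 KRT18 probe sets differ in their surroundings on the array. Probe set numbers follow position in the genome: for the dimmer KRT18 probe set, and for those of the other 6 members, the 10 nearest annotated numbers all belong to genes of the keratin's own chromosome. For the brighter KRT18 probe set, all 10 belong to genes of chromosome 3, whereas KRT18 lies on chromosome 12. KRT18 has processed copies elsewhere in the genome, and whether the brighter probe set reads KRT18 itself was not tested. Both probe sets gave a positive change that did not pass.

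KRT14, the type I partner of KRT5 in basal epithelium, did not move with KRT5. It read 4.39, 4.29 and 4.25 in 3D replicates 1, 2 and 3, and 4.14, 4.19 and 4.35 in 2D replicates 1, 2 and 3. These values overlapped and lay close to the array medians of 4.30 to 4.37. The change was 0.09 ± 0.10 (SE, limma adjusted p = 0.692), with a 95% interval of -0.15 to 0.32. KRT14 shares long stretches of sequence with KRT16 and KRT17, so its probe set may not read it alone.

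The 3D arrays were then set singly against the 2D mean, since 3D replicate 1 stood apart. For the members that rose, 3D replicate 1 moved less than the others. KRT5 lay 1.60 above the 2D mean in 3D replicate 1, and 4.12 and 3.93 above it in 3D replicates 2 and 3. KRT19 lay 2.24 above it in 3D replicate 1, and 3.01 and 2.84 above it in the other 3D arrays. For the members that fell, 3D replicate 1 moved as far as the others or farther: KRT7 differed from the 2D mean by -0.96, -0.91 and -0.93, and KRT80 by -1.96, -1.49 and -1.84.

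As a share of the mean shift in 3D replicates 2 and 3, the shift of 3D replicate 1 was 39.8% for KRT5, 76.6% for KRT19, 104% for KRT7 and 117% for KRT80. Over the 259 genes that rose at least 2-fold this share had a median of 82.5%, with quartiles of 69.0% and 92.8%, and 7 of them had a lower share than KRT5. Over the 169 genes that fell at least 2-fold the median was 93.4%, with quartiles of 79.0% and 108%. KRT5 thus lay well below the quartiles of the risers, and KRT19 lay inside them. KRT80 lay above the quartiles of the genes that fell at least 2-fold, which do not include KRT7. These shares are a description of 1 array and carry no test.

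**Figure D2:**
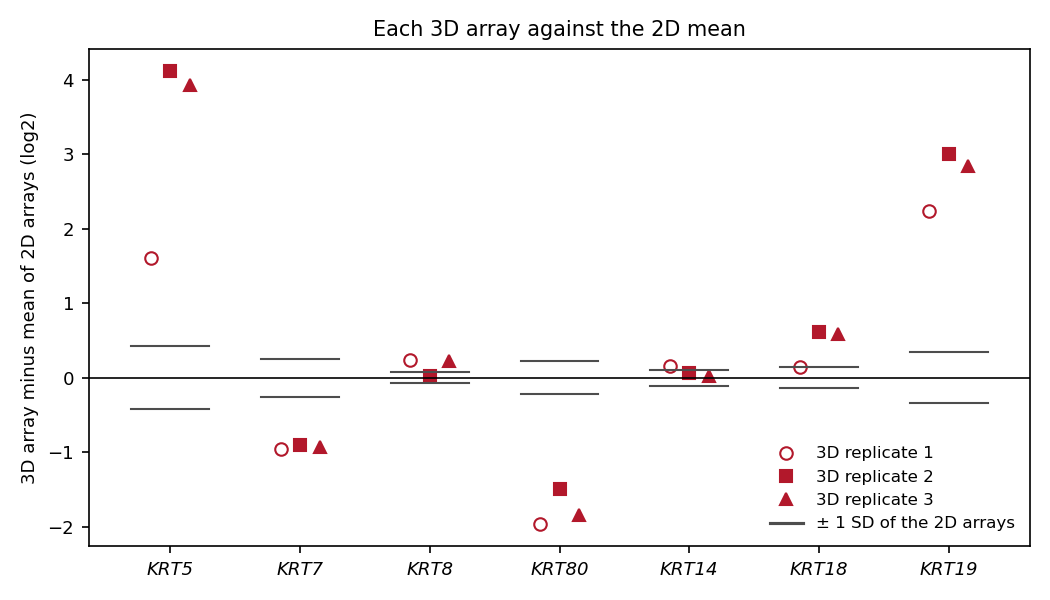
Difference of each 3D array from the mean of the 2D arrays, in log2 units, for the 7 measured keratins. Open circles mark 3D replicate 1, and grey lines give 1 SD of the 2D arrays on either side of 0. 3D replicate 1 lies nearer to 0 than the other 3D arrays for KRT5, KRT18 and KRT19, at 1.60, 0.14 and 2.24. For KRT7 and KRT80 it lies farther from 0 than they do, at -0.96 and -1.96.

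Since type I and type II keratins form filaments together, the difference between 2 keratins was also compared within arrays. Such a difference shows unequal change and says nothing on which protein is more abundant. Of 6 pairs planned, 4 could be computed. KRT7 minus KRT19 was -4.40, -5.12 and -4.97 in 3D, and -1.70, -1.22 and -0.67 in 2D, a change of -3.63 ± 0.37 (SE, n = 3 each). KRT8 minus KRT19 changed by -2.54 ± 0.33 and KRT5 minus KRT14 by 3.13 ± 0.90. For each of these 3 pairs the groups did not overlap (exact permutation test over arrays, two-sided, p = 0.1, the smallest that 3 against 3 arrays allows; 0.133 after adjustment over 4 pairs). For the simple epithelial pair, KRT8 minus KRT18, the groups overlapped, with a change of -0.29 ± 0.24 (exact permutation p = 0.3). This pair used the brighter KRT18 probe set. The limits given above for the probe sets of KRT8, KRT14 and KRT18 hold for their pairs as well. The design could not bring any pair under 0.05.

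Outside the set, 40 other keratin genes were measured, and 0 passed (limma). At an unadjusted p under 0.05, 4 of the 40 were higher and 0 lower, where 23.5% of all genes were past it in either direction. Their changes ran from -0.27 to 0.69 with a median of 0.02. All 3D arrays lay above all 2D arrays for 4 of the 40 and below for 1, against 13.8% and 15.3% of all genes. Among the 7 members, 4 did not overlap in either direction, against 29.2% of all genes. The mean of 7 of the 40 other keratins was under 2.94, the lower quartile of all probe sets, and changes of such dim probe sets are compressed.

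The 4 that had all 3D arrays above are type I genes. KRT23, an epithelial keratin, read 5.50, 5.56 and 5.64 in 3D and 4.71, 5.34 and 4.58 in 2D, a change of 0.69 ± 0.19 (SE, limma adjusted p = 0.0643). KRT15, a keratin of basal cells, read 4.37, 4.91 and 4.79 in 3D and 4.16, 4.23 and 4.18 in 2D, a change of 0.50 ± 0.15 (adjusted p = 0.0746). KRT23 passed with a trended robust variance (adjusted p = 0.0426) and without 2D replicate 2 (0.00704), and KRT15 passed without 3D replicate 1 (0.00702). KRT25 and KRT26, of the hair follicle, gave 0.21 and 0.28. The terminal differentiation keratins KRT1 and KRT10 gave 0.02 and 0.01, and the intestinal keratin KRT20 gave -0.18.

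The keratin genes lie in 2 clusters, and the members that changed do not lie side by side with others that changed, except for KRT80 and KRT7. In the RefSeq gene table, chromosome 12 holds 27 keratin genes, type II except for KRT18, of which 22 were measured. KRT80 and KRT7, which fell, are its first genes. KRT5 is gene 13 in order. Of its neighbours, KRT6A was not measured and KRT71 did not pass, with a change of 0.43 ± 0.24 (SE, limma adjusted p = 0.336). Chromosome 17 holds 28 keratin genes, of which 25 were measured and 1 rose. KRT19 there lies between KRT15 (0.50) and KRT9 (0.29 ± 0.24, adjusted p = 0.536), and neither passed.

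**Figure D3:**
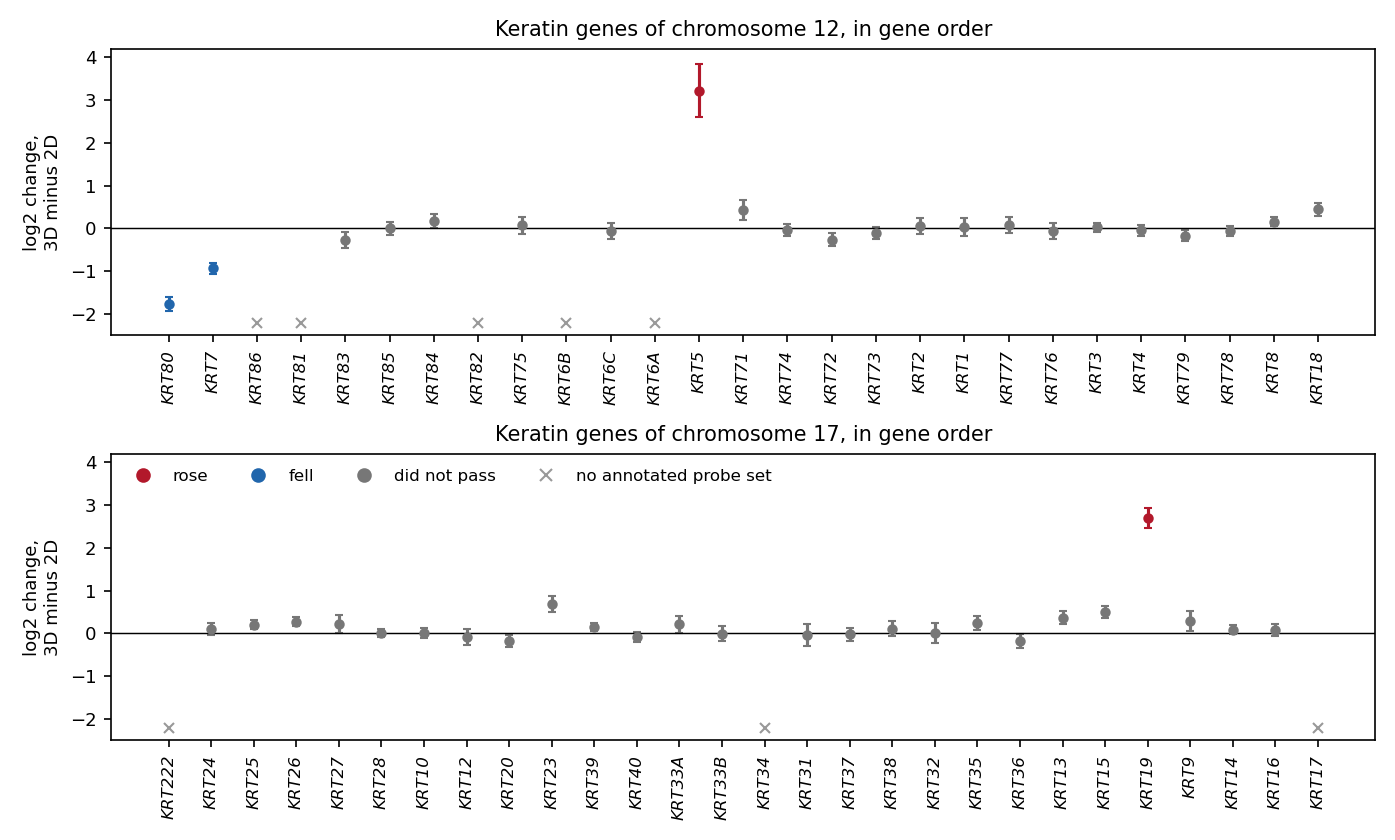
Log2 change, 3D minus 2D, with its SE from limma (n = 3 arrays per group), for the keratin genes of chromosomes 12 and 17 in gene order. Crosses at the foot mark genes with no annotated probe set in the annotation used here. KRT5 (3.22) and KRT19 (2.70) stand above and KRT80 (-1.77) and KRT7 (-0.93) below, and the remaining genes lie between -0.27 and 0.69.

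Keratin filaments attach to desmosomes through plakins and armadillo proteins. Of 21 genes on the list of keratin anchors, 18 were measured, 4 rose, 0 fell and 14 did not pass, beside 5.23% of all genes that rose and 4.77% that fell. The plakophilin gene PKP2 averaged 9.06 ± 0.30 in 3D and 7.87 ± 0.19 in 2D (SD, n = 3 each), a change of 1.19 ± 0.17 (SE, limma adjusted p = 0.00468). JUP, encoding plakoglobin, changed by 1.02 ± 0.10, PKP4 by 0.70 ± 0.09 and the desmocollin gene DSC3 by 0.39 ± 0.09. DSC3 lost its call without any single array (adjusted p of 0.0547 to 0.146). DSP, encoding the plakin that binds keratins at the desmosome, gave 0.20 ± 0.11 (adjusted p = 0.33), and the plectin gene PLEC gave 0.09 ± 0.11. Other plakin genes had negative changes that did not pass, among them DST (-0.49 ± 0.14, adjusted p = 0.0657), EVPL (-0.18 ± 0.10) and MACF1 (-0.12 ± 0.11). At an unadjusted p under 0.05 (limma), 8 of the 18 were higher and 1, DST, was lower. Of all genes, 23.5% were past it in either direction. The list median was 0.15, beside -0.01 over all genes.

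Genes of the stratified epithelia in which KRT5 is known were counted next. Of 25 genes of cornified and stratified epithelium 22 were measured and 1 rose, the sciellin gene SCEL, encoding a precursor of the cornified envelope. A count of 1 in 22 is near the 5.23% of all genes that rose, and so is no result about this list. SCEL averaged 5.36 ± 0.51 in 3D and 3.50 ± 0.13 in 2D (SD, n = 3 each), a change of 1.86 ± 0.24 (SE, limma adjusted p = 0.00287). The involucrin gene IVL gave 0.43 ± 0.22, and the list median was 0.0046. Of 11 genes of the hemidesmosome and basal epithelium 3 were measured, without TP63, the integrin genes or the laminin genes. Of these 3, 0 rose and 1 fell, the calcium-binding protein gene S100A2 (-1.01 ± 0.17, adjusted p = 0.00872).

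Genes of simple epithelium, the setting of KRT19 and KRT7, were mostly higher. Of 13 listed genes 8 were measured, 7 rose and 0 fell, with a median of 1.14, against 5.23% of all genes that rose, 4.77% that fell and a median of -0.01 over all genes. The list was chosen with earlier results of these data known, so this count is a description and not an independent comparison. The secretory epithelium gene AGR2 changed by 3.32 ± 0.27 (SE, limma adjusted p = 0.000387), the adhesion gene EPCAM by 1.76 ± 0.11, and the epithelial splicing regulator genes ESRP1 and ESRP2 by 1.54 ± 0.28 and 1.16 ± 0.16. ESRP1 lost its call without 2D replicate 2 or 3D replicate 3 (adjusted p = 0.0539 and 0.0526). The claudin gene CLDN4 (0.64) lost its call without 3D replicate 2 or 3D replicate 3 (adjusted p = 0.0652 and 0.0703). CLDN7, the listed gene that did not pass, gave -0.39 ± 0.12 (adjusted p = 0.0951). KRT7 and CLDN7 thus had negative changes beside the positive ones of the other 7 genes and KRT19.

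Of 19 transcription factors tied to epithelial keratin genes 14 were measured, 2 rose, 2 fell and 10 did not pass, beside 5.23% of all genes that rose and 4.77% that fell. EHF, an epithelial factor of the ETS family, averaged 9.41 ± 0.23 in 3D and 7.34 ± 0.14 in 2D (SD, n = 3 each), a change of 2.06 ± 0.14 (SE, limma adjusted p = 0.000221). KLF5, a factor of proliferating epithelium, changed by 0.59 ± 0.14 (adjusted p = 0.0395), a call that was lost on leaving out any 2D array, 3D replicate 2 or 3D replicate 3 (adjusted p of 0.0539 to 0.14). ETS1 changed by -1.50 ± 0.11 and the AP-1 subunit gene FOSL1 by -1.02 ± 0.12. GRHL2 gave 0.02 ± 0.10 and KLF4 gave -0.49 ± 0.15 (adjusted p = 0.0922, or 0.0239 without 3D replicate 1). The list median was 0.07.

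All 5 listed repressors of epithelial genes were measured, and 1 fell, ZEB2 (-0.52 ± 0.11, SE, limma adjusted p = 0.0263). That call was lost without any single 2D array or 3D replicate 2 (adjusted p up to 0.106). ZEB1 gave -0.35 ± 0.09 (adjusted p = 0.0527, or 0.0403 without 3D replicate 1). It also passed with dim probe sets filtered out (0.0428) and a trended robust variance (0.0295), but reached 0.19 without single arrays. SNAI1 had the largest change of the 5 in size, 0.57 ± 0.24 (adjusted p = 0.207), SNAI2 gave 0.05 ± 0.16 and TWIST1 gave -0.18 ± 0.11. At an unadjusted p under 0.05 (limma), 1 of the 5 was higher and 2 were lower. Of all genes, 23.5% were past it in either direction. The median of the 5 was -0.18. Of 15 other intermediate filament genes 8 were measured and 0 passed (limma), with 1 higher and 1 lower at an unadjusted p under 0.05. Vimentin (VIM), the filament protein of mesenchymal cells, gave -0.37 ± 0.09 (adjusted p = 0.0501), and nestin (NES) gave 0.29 ± 0.12. VIM passed without 3D replicate 1 (adjusted p = 0.0416) and with its more variable probe set (-0.49, adjusted p = 0.0189). It also passed with dim probe sets filtered out (0.0411), the mean of its probe sets (0.0344) and a trended robust variance (0.0121). Without single arrays its adjusted p reached 0.182. The median of the 8 was -0.03.

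**Figure D4:**
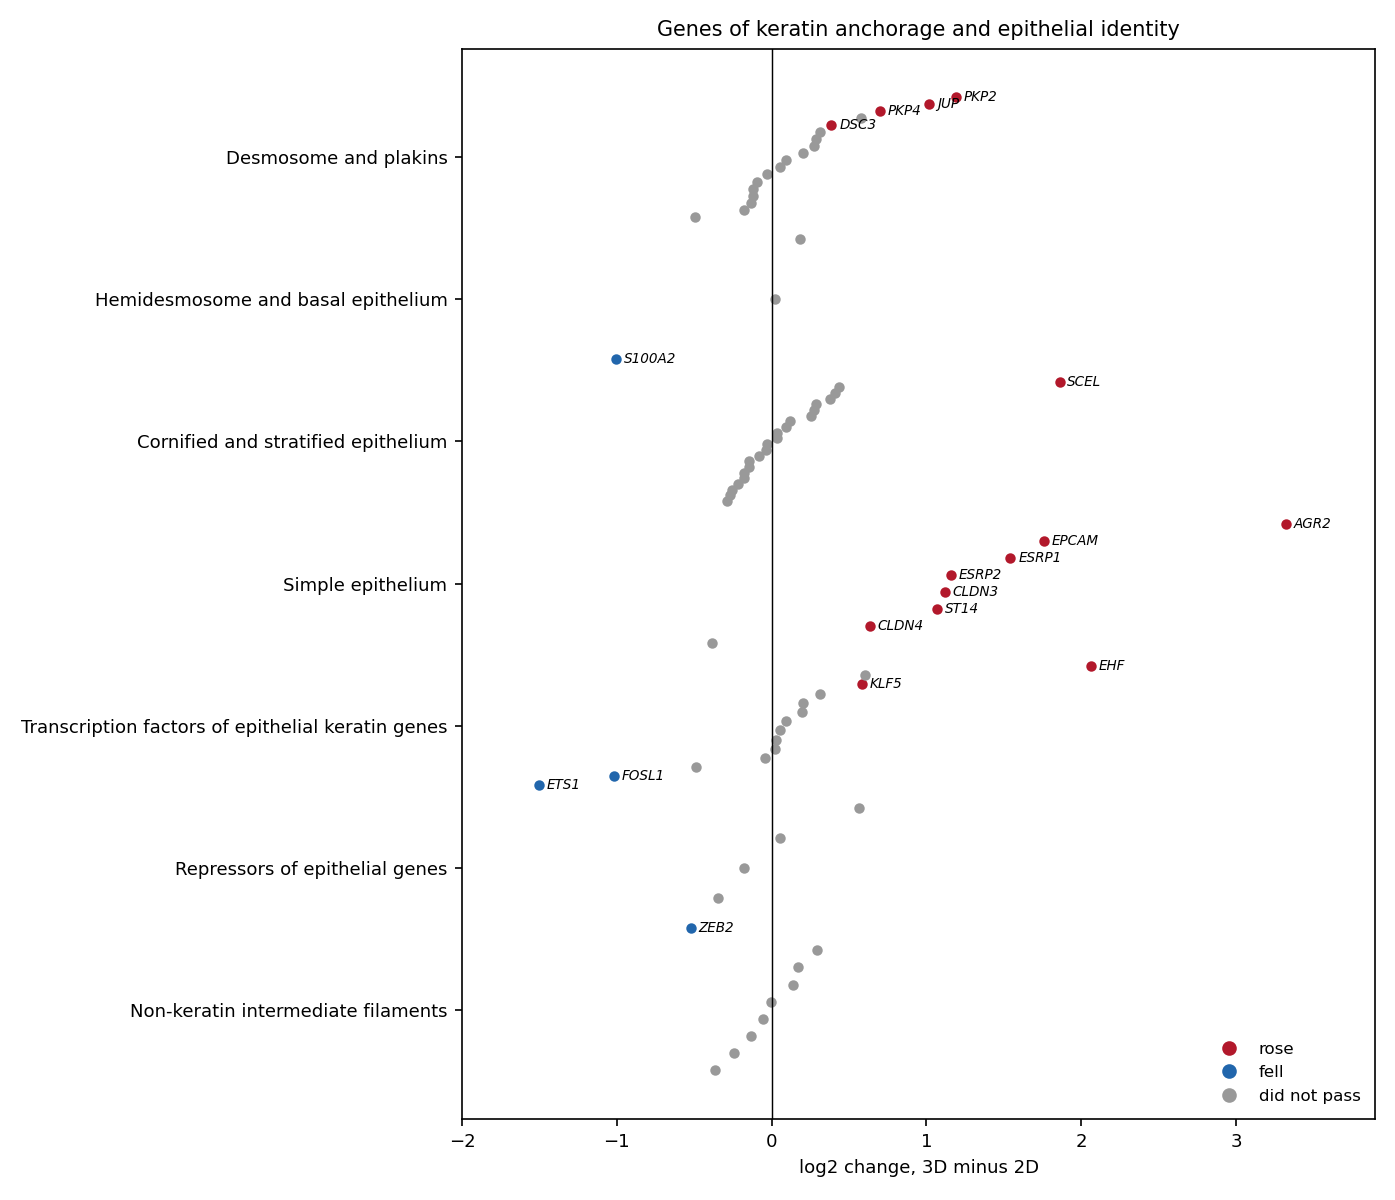
Log2 change, 3D minus 2D, of each measured gene in 7 lists (3 arrays per group, RMA values). Each point is a gene, spread vertically in order of change within its list, and genes past an adjusted p of 0.05 are coloured and named. Of 8 simple epithelium genes 7 lie to the right, from CLDN4 (0.64) to AGR2 (3.32), whereas 1 of 22 genes of cornified and stratified epithelium, SCEL, is past the threshold.

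For each keratin that passed, the 3 genes with the nearest profile were found by the root mean square difference of log2 values over the 6 arrays, each gene being centred on its own mean. The genes nearest to KRT5 were VSIG1, encoding an immunoglobulin-domain membrane protein, at 0.40, FGFBP1, encoding a carrier of fibroblast growth factors, at 0.54, and AGR2 at 0.59. VSIG1 read 7.18, 8.86 and 8.94 in 3D replicates 1, 2 and 3, and 5.64, 4.83 and 5.10 in 2D. Nearest to KRT19 were the adaptor gene FYB2 at 0.14, SYTL5, a synaptotagmin-like gene, at 0.20 and FGFBP1 at 0.21.

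Near KRT7 the zinc finger gene GLIS2 lay at 0.06, the transcription factor gene MYC at 0.08 and the laminin-binding receptor gene BCAM at 0.11. GLIS2 read 7.12, 7.03 and 6.98 in 3D replicates 1, 2 and 3, and 7.77, 8.15 and 8.18 in 2D. Nearest to KRT80 were PRELID3A and the Krüppel-like factor gene KLF7, both at 0.19, and the guanine nucleotide exchange factor gene DOCK4 at 0.20. These genes were picked for likeness over the same arrays, so a shared direction or a shared low array follows from the choice. The distance grows with the size and spread of the keratin's own change, so distances are not compared between keratins.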

How the data were processed

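Total RNA (100 ng per sample) from 3 3D and 3 2D SKOV3 samples was hybridised to 1 array each. The authors deposited log2 values for 53617 probe sets, made with RMA per the submitters' processing notes. That the values are log2 follows from their range (0.30 to 13.87), and neither the software version nor the genome build is stated. The labels name a 3′ IVT labelling kit, whereas the probe set numbers have the form used on whole-transcript arrays. What that means for these values was not tested. RMA compresses the changes of dim probe sets, levels of different probe sets cannot be compared, and the number of arrays limits the precision.

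Platform annotation gave 1 symbol to 16098 probe sets and none to 37519, and each gene kept its probe set with the highest mean. Group alone was fitted with limma 3.58.1 in R 4.3.3, with moderated variances and two-sided tests, and keratin pairs were tested with scipy 1.17.1. The fit was tested on simulated data.

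The members and lists were chosen with earlier results of these data known. Genes named were all measured members, other keratins, up to 4 called genes per list with the largest change, and the 3 nearest profiles per called member. Other genes, such as those that did not pass, were named after their values were seen. Alternatives were a repeated quantile normalization, median centring, a dim filter, other probe set rules, a block for the replicate number, a trended robust variance, a 1.2-fold limit and leaving out each array.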

Additional observations from a re-analysis of the deposited data

How the results depend on the processing

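The members that fell numbered 2 under every alternative run, and no member changed sign. Among the other named genes, sign changes were seen where single arrays were left out, for genes that had not passed: KRT1 (-0.24 to 0.18), KRT10 (-0.0497 to 0.0936), KRT9 (-0.0021 to 0.47), GRHL2 (-0.0239 to 0.0800) and SNAI2 (-0.0587 to 0.185). Leaving out single arrays gave 1 to 3 members higher, and 1 was higher when all probe sets were tested singly, where KRT5 did not pass (adjusted p = 0.0673). Other keratins higher numbered 1 with a trended robust variance and 0 to 1 without single arrays, and 0 to 1 were lower, namely KRT72 (-0.43, adjusted p = 0.0385) without 3D replicate 1. Over all genes, 353 rose and 239 fell against a 1.2-fold limit. Without single arrays 420 to 1096 rose and 349 to 803 fell, the highest counts being those without 3D replicate 1 and the lowest without 3D replicate 3 for rises and 3D replicate 2 for falls. Without single arrays, KRT8 minus KRT18 ran from -0.48 to -0.13, KRT8 minus KRT19 from -2.80 to -2.31, KRT7 minus KRT19 from -3.88 to -3.37 and KRT5 minus KRT14 from 2.67 to 3.98. With the replicate number as a block, 433 genes rose and 327 fell, and the calls of S100A2 (adjusted p = 0.051), ZEB2 (0.0588), CLDN4 (0.0658), KRTAP2-4 (0.0687), DSC3 (0.128) and KRTAP13-2 (0.129) were lost. Same-numbered samples did not deviate together (correlations of -0.28, -0.06 and -0.18). These correlations cannot exclude a link between them, because deviations were taken from the means of groups of 3 arrays. DSC3, KLF5, ZEB2, CD68, CLDN4, KRTAP2-4, KRTAP5-2 and KRTAP13-2 did not pass against the 1.2-fold limit.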

Other observations

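Of 84 genes for keratin-associated proteins, the matrix proteins of hair, 1 rose and 3 fell, shares below the 5.23% and 4.77% of all genes that rose and fell, so the counts are no result about this list. KRTAP5-2 read 3.99, 3.52 and 3.86 in 3D and 4.52, 4.49 and 4.73 in 2D, a change of -0.79 ± 0.14 (SE, n = 3 each, limma adjusted p = 0.013). KRTAP20-1 changed by -0.75 ± 0.11, KRTAP2-4 by -0.58 ± 0.11 and KRTAP13-2 by 0.39 ± 0.10, and these genes were named after their values were seen. KRTAP13-2 lost its call under most alternatives, among them leaving out any single array (adjusted p of 0.0556 to 0.155), median centring (adjusted p = 0.0557) and a trended robust variance (0.111). Calls were also lost for KRTAP2-4 without 2D replicate 2 or 3D replicate 2 and for KRTAP5-2 without 2D replicate 3 (adjusted p of 0.0541 to 0.0682). The list median was 0.01, and 28 of the 84 had a mean under the lower quartile of all probe sets. Of 7 keratin pseudogenes 0 passed (limma, and 0 at an unadjusted p under 0.05), with changes from -0.28 to 0.22.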
